A study of Mus musculus with 19 samples.

Results

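Clusters of accessible chromatin that carried no mapped Smad2/3 site were examined in mouse skin squamous cell carcinoma. Neighbouring ATAC peaks separated by 5 kb or less were joined into runs, and a run of 4 or more peaks was called dense. The clusters described are the autosomal dense runs in which no peak overlapped a Smad2/3 site, called site-free runs below. They were chosen by measured values, namely the positions of the ATAC peaks and of the Smad2/3 sites. The rule found 805 site-free runs with 3675 peaks, which is 6.17% of the 59603 autosomal peaks and 5.97% of all 61553 peaks listed. The 401 dense runs with a site held 2034 peaks, and 53894 peaks lay in runs of 1 to 3.

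The labels tie the merged peak list to ATAC libraries of quiescent cells (CD71 low, H2BGFP high), double negative cells (low for both), double positive cells (high for both) and proliferative cells (CD71 high, H2BGFP low), sorted from SCC1 and from SCC2, which are tumours, and each population gave 1 library in each. CD71 is the transferrin receptor, and H2BGFP is a histone label that cells dilute as they divide. The tumours were allografts on the strain C57BL/6, each grown from 10000 injected cells, and the labels name the tissue as skin. Smad2/3 sites came from a single ChIP sample of SCC1 cells given 5 ng/mL TGFβ1 for 1 h in 50 uM calcium, with input DNA of SCC1 and SCC2. A site is therefore a bound position with a motif in those treated cells, and no site says only that none is listed. RNA was measured in quiescent, double negative and proliferative cells of both tumours, with 1 library each, so the spread between libraries of a tumour cannot be given. Neither list holds a score per library, so accessibility could not be compared between populations, and the sources used here do not say which libraries support a peak. Whether the Tgfbr2KO libraries of a further tumour, SCC3, also entered the merged list is likewise not stated, so every count of peaks and runs may include theirs. No other data of SCC3 were used here.

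As background, ATAC-seq marks DNA that a transposase can reach, mostly promoters and enhancers. Long clusters of neighbouring open elements often surround genes that are strongly expressed or tightly regulated in a cell type. TGF-β receptors phosphorylate Smad2 and Smad3, which enter the nucleus and bind short motifs beside other transcription factors, so that clusters of open chromatin with and without Smad2/3 are both found in TGF-β-responsive cells.

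Promoter sequences show what lay under some of the peaks. A promoter window, 250 bases before to 50 bases after an annotated start, overlapped a member peak at 460 genes, with 535 distinct sequences. The sequences are from RefSeq, build GRCm38.p6, the assembly that mm10 names, and read 5′ to 3′ on the strand of the gene. Capitals mark the Smad letters CAGAC on either strand and the palindrome GTCTAGAC. The first 3 belong to the site-free runs with the most peaks that had a protein-coding promoter under a peak, and C9orf72 is in the run with the most peaks per kb among site-free runs of 5 or more peaks. Fos and Mki67 are among the genes named by RNA below, and Tnfaip3 and Sys1 were chosen after their values were seen, because they hold the palindrome.
Tnip3 (chr6:65590148-65590447, plus strand): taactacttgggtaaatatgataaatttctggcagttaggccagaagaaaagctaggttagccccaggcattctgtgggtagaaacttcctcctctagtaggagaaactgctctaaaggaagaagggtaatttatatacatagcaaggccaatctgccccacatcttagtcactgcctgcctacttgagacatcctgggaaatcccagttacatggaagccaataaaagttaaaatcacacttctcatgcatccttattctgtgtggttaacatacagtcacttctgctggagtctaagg
Cep170 (chr1:176813904-176814203, minus strand): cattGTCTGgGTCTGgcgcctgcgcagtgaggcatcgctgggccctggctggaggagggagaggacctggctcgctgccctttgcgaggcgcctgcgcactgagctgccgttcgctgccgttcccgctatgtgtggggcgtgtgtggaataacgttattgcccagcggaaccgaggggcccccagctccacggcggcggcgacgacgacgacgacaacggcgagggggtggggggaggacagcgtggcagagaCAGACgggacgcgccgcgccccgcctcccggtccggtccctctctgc
Lgmn (chr12:102439679-102439978, minus strand): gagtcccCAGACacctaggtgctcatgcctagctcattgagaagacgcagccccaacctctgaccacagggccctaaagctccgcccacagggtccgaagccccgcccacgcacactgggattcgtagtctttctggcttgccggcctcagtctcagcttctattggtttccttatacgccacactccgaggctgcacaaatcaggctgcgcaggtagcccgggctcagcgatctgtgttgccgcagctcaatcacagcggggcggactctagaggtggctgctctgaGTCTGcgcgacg
C9orf72 (chr4:35225787-35226086, minus strand): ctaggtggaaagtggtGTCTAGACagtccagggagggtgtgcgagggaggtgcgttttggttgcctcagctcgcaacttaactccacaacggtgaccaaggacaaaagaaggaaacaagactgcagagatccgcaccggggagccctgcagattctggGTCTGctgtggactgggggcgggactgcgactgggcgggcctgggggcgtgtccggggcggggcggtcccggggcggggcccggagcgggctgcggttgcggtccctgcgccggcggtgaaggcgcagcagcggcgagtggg
Fos (chr12:85473640-85473939, plus strand): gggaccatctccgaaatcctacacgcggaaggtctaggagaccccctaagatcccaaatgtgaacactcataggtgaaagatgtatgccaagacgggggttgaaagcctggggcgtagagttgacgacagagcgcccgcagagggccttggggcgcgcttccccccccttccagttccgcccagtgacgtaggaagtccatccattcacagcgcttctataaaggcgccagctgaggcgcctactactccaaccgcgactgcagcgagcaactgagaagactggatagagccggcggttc
Mki67 (chr7:135716330-135716629, minus strand): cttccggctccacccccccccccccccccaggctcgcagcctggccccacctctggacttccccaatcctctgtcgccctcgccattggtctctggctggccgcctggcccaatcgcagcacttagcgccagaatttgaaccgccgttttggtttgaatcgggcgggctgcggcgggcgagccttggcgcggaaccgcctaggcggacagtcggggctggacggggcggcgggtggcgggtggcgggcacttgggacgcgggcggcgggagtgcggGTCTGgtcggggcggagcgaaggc
Tnfaip3 (chr10:19011914-19012213, minus strand): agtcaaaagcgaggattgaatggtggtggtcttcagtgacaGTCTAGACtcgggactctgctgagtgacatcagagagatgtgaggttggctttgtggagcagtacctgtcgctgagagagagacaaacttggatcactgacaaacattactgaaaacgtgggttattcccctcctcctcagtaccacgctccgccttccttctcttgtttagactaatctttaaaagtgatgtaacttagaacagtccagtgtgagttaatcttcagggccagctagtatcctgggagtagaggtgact
Sys1 (chr2:164460721-164461020, plus strand): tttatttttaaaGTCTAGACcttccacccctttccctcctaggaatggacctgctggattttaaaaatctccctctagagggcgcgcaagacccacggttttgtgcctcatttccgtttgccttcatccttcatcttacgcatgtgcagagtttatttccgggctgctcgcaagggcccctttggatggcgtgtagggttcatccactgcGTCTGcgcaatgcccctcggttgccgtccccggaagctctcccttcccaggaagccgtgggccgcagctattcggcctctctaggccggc
The Cep170 window held 3 matches to CAGAC, the Lgmn window 2, and the C9orf72, Sys1 and Mki67 windows 1 each. No match lay in the Tnip3 or Fos window, or, for CAGAC, in the Tnfaip3 window shown. The palindrome began 234 bases before the annotated start used for C9orf72, 209 before that for Tnfaip3 and 238 before that for Sys1. On the minus strand the C9orf72 gene body begins at 35226153, upstream of the start used (35225836). Another Tnfaip3 start, at 19015410, lies upstream of the one shown (19011963), and its window holds no palindrome. In both of these genes the palindrome therefore lies inside the gene body. Tnfaip3 encodes A20, an inhibitor of NF-κB signalling, and Tnip3 encodes a protein of a family that binds A20. A match is a description of letters, not a bound site.

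The share of runs with no site fell with the number of peaks in a run. Of 728 runs of 4 peaks, 521 had no site (71.6%, exact binomial 95% interval 68.1 to 74.8). The share was 64.8% of 264 runs of 5 peaks, 57.5% of 127 runs of 6, 55.3% of 47 runs of 7 and 44.0% of 25 runs of 8. Above that, 2 of 7 runs of 9 peaks and 1 of 6 runs of 10 peaks were site-free. Just outside the limit on peaks, 1823 of 2220 runs of 3 peaks had no site (82.1%). The share of single peaks with a site also differed with run size. It was 9.95% of the 5709 peaks in dense runs (9.19 to 10.8), 7.16% in runs of 3, 6.56% in runs of 2 and 5.07% of the 32224 lone peaks (4.83 to 5.32). Of the 401 dense runs with a site, 270 had it in exactly 1 peak. These shares describe the rule itself, and the intervals cover counting error only.

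**Figure D1:**
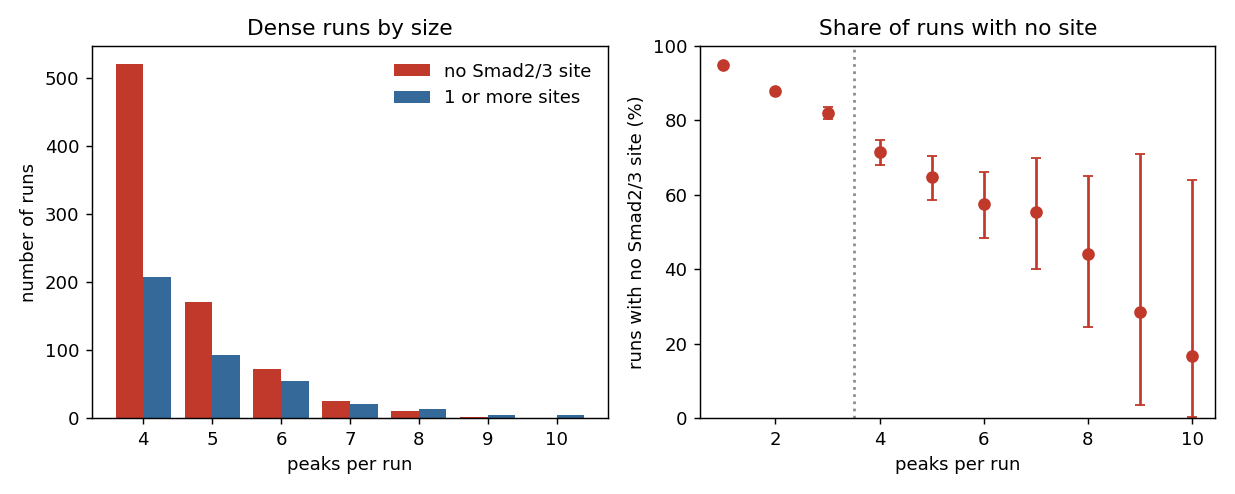
Left, number of dense runs by peaks per run, without and with a Smad2/3 site. Right, percent of runs without a site by peaks per run, with exact binomial 95% intervals, and a dotted line at the limit of 4 peaks. The share is 94.9% at 1 peak and 16.7% at 10 peaks, where only 6 runs exist.

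Site-free runs were close to dense runs with a site in peak width and in the share of the span covered. The joining rule of 5 kb itself limits how far apart the peaks of a run can lie. Their median span was 9650 bp (quartiles 7650 and 12300, range 2500 to 33600), against 10750 bp for dense runs with a site. At equal size the spans were closer, 8550 bp for the 4-peak site-free runs (95% interval of the median 8250 to 8750) and 8800 bp for the 4-peak runs with a site (8400 to 9400). Peaks covered a median of 25.8% of the span in site-free runs and 26.0% in runs with a site. The median peak width was 550 bp in site-free runs, in dense runs with a site and over all autosomal peaks. Peaks of 1 kb or more made up 3.76% of member peaks, 5.41% of peaks in dense runs with a site and 3.97% of all autosomal peaks. The median gap inside a site-free run was 1975 bp, and the largest was 5000 bp, at the limit of the rule. The smallest gap that ended a site-free run was 5050 bp, 72 site-free runs had a flanking gap of 5500 bp or less, and 224 inner gaps were 4500 bp or more.

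The run with the most peaks covered Tnip3 (mm10, chr6:65584901-65618500), with 10 peaks over 33600 bp, and it was also the longest. The nearest site lay 1292494 bp from it. A run of 9 peaks on chromosome 10 (chr10:121483451-121507800) covered only lncRNA genes, 7200 bp from Rassf3. The other run of 9 peaks (chr1:176813951-176835850) covered Cep170 and Sdccag8, which encode centrosomal proteins. Of the 11 site-free runs of 8 peaks, the 9 longest complete the 12 described, and the shorter ones lay at Galnt7 and Tmigd3. The 9 covered BC035044, Zmiz1 (a transcriptional coactivator), Lgmn (legumain, a lysosomal protease), Usp6nl (a GTPase-activating protein for Rab GTPases), Ezr (ezrin, which ties the membrane to actin) and Ctsd (cathepsin D, a lysosomal protease), or lay beside Actr3, Scel and Irf2bpl. The Actr3 neighbour was the farthest from a site, at 4748168 bp. The Ezr run held a site between its peaks, 350 bp from the nearest one.

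**Figure D2:**
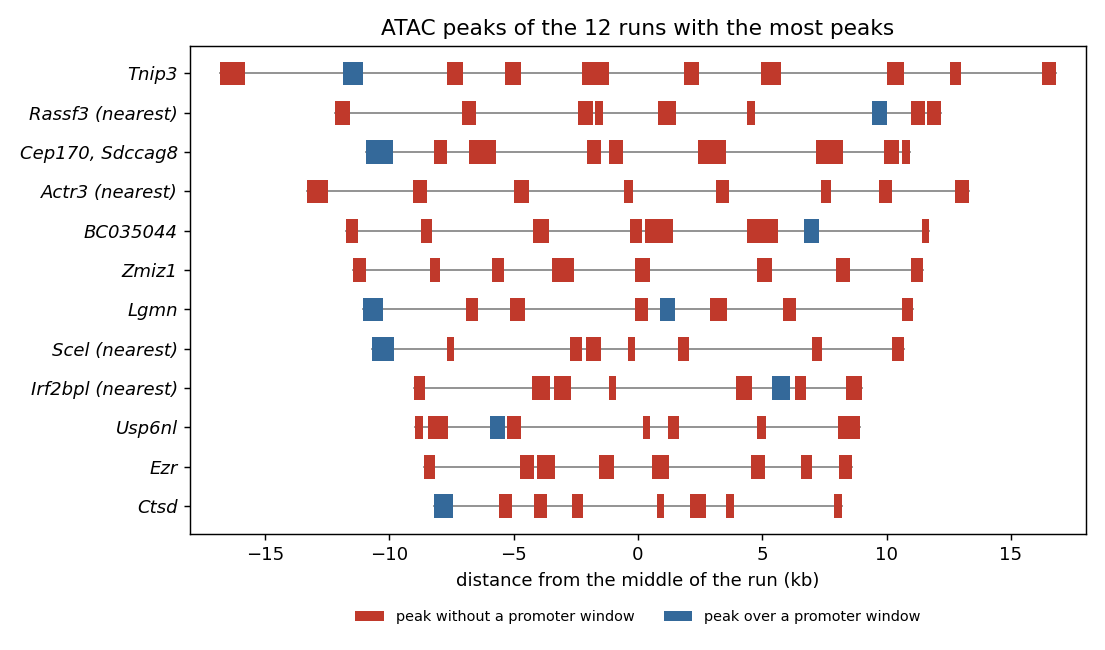
ATAC peaks of the 12 site-free runs with the most peaks, the longer first among those of 8 peaks, as blocks to scale, against distance from the middle of the run in kb, in genome order. Names are overlapping protein-coding genes, or the nearest one. The top run has 10 peaks over 33600 bp, and 9 of the 12 runs have at least 1 peak over a promoter window.

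Length and density picked out other loci. The fourth longest run lay at Cx3cr1, the receptor for fractalkine on monocytes and microglia, with 6 peaks over 24250 bp (chr9:120049301-120073550). The other long runs were those at Tnip3, beside Actr3, beside Rassf3 and at BC035044. Among runs of 5 or more peaks, the most closely packed lay at C9orf72, with 5 peaks in 4700 bp (chr4:35221851-35226550) that covered 62.8% of the span. Next came Gse1 (5 peaks in 4800 bp), Mbnl2, a splicing regulator (5 in 5150 bp), a run 32915 bp from Cd9 (5 in 5500 bp), and Tmigd3 (8 in 9350 bp).

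Sites lay at very different distances from site-free runs. The nearest site was a median of 118029 bp away (quartiles 29715 and 478664), within 10 kb for 87 runs and within 100 kb for 377 runs (46.8%). For 108 runs no site lay within 1 Mb. In 25 runs, 26 sites fell inside the span but between the peaks. Those runs included Smad3, the signalling protein itself, Pmepa1, a feedback inhibitor of TGF-β signalling, Per1, a clock gene, and Cmip. The site lay 1201 bp from the nearest peak at Smad3, 86 bp at Pmepa1, 351 bp at Per1 and 56 bp at Cmip. A dense run with a site lay within 100 kb of 93 site-free runs (11.6%). The 32 protein-coding genes that carried both kinds of run made up 4.62% of the 692 genes over site-free runs and 9.25% of the 346 genes over dense runs with a site. Smad3, Pmepa1, Myh9, Ptpre and Gipc2 were among them.

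Member peaks lay mostly inside genes. Of 3675 member peaks, 60.5% overlapped a protein-coding gene body (58.9 to 62.1), against 59.3% in dense runs with a site (57.2 to 61.5) and 57.4% over all autosomal peaks. Promoter windows, not used on chromosome 18, overlapped 12.3% of member peaks (11.2 to 13.4), 10.2% of peaks in dense runs with a site (8.87 to 11.6) and 15.2% of all autosomal peaks (14.9 to 15.5). At least 1 peak over a promoter was found in 354 of 793 site-free runs (44.6%, 41.1 to 48.2), against 149 of 390 dense runs with a site (38.2%, 33.4 to 43.2). Among 4-peak runs the shares were 41.6% in site-free runs (37.3 to 46.0) and 32.3% in runs with a site (25.9 to 39.3). Peaks of a run are not independent, so these intervals are too narrow. Member peaks over a promoter had a median width of 700 bp, against 550 bp for the other member peaks. Of the site-free runs, 605 covered a protein-coding gene and 124 covered no gene of any kind. The genes covered had a median length of 39476 bp, against 17491 bp over all autosomal protein-coding genes. In all, 29 genes carried 2 site-free runs each, among them Ezr, Foxp1, Etv6 and Nfkb1, which encodes a subunit of NF-κB.

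Promoter letters were counted under member peaks and beside 3 other sets of promoters. The median GC content was 61.0% under member peaks, 59.3% under peaks of dense runs with a site, 61.7% under any autosomal peak and 53.0% over all 31223 distinct autosomal promoter sequences. Every motif was searched on both strands. CAGAC was found in 49.3% of the 535 windows under member peaks (45.0 to 53.7), against 54.9% under dense runs with a site (48.3 to 61.4), 47.1% under any peak and 49.6% over all promoters. The AP-1 letters TGANTCA were found in 7.29% of member windows (5.24 to 9.83), 11.2% under dense runs with a site (7.42 to 15.9), 6.25% under any peak and 7.83% over all. The ETS letters CCGGAAG were found in 11.2% of member windows (8.67 to 14.2), 18.03% under dense runs with a site (13.3 to 23.6), 19.3% under any peak (18.6 to 20.03) and 9.03% over all. For the NF-Y letters CCAAT the shares were 33.1% (29.1 to 37.2), 30.5%, 39.1% (38.2 to 39.97) and 37.2% in the same order. The other letters plotted were CCCTC for the CTCF core, CANNTG for the E-box, GGAATG for TEAD factors, GGGCGG for SP and KLF factors and CATG for part of the p63 site, which can overlap the E-box. In member windows their shares were 76.6%, 61.7%, 11.03%, 62.8% and 47.3% in that order, and under any peak 74.8%, 61.5%, 10.8%, 65.6% and 48.5%. Over all promoters they were 66.3%, 72.1%, 14.6%, 36.1% and 60.9%. The palindrome GTCTAGAC was found in 7 member windows, or 1.31% (0.528 to 2.68), in 0 of 233 under dense runs with a site, where the interval reaches 1.57%, in 0.240% under any peak and in 0.224% over all. Those 7 windows belong to Armc9, Tnfaip3, Zfp52, Sys1, C9orf72 and the facing histone genes H2ac22 and H2bc22, whose windows overlap, so they are 6 separate places. Windows of 1 gene can overlap, and none of these shares was tested. Sequence of peaks away from promoters was not analysed here.

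**Figure D3:**
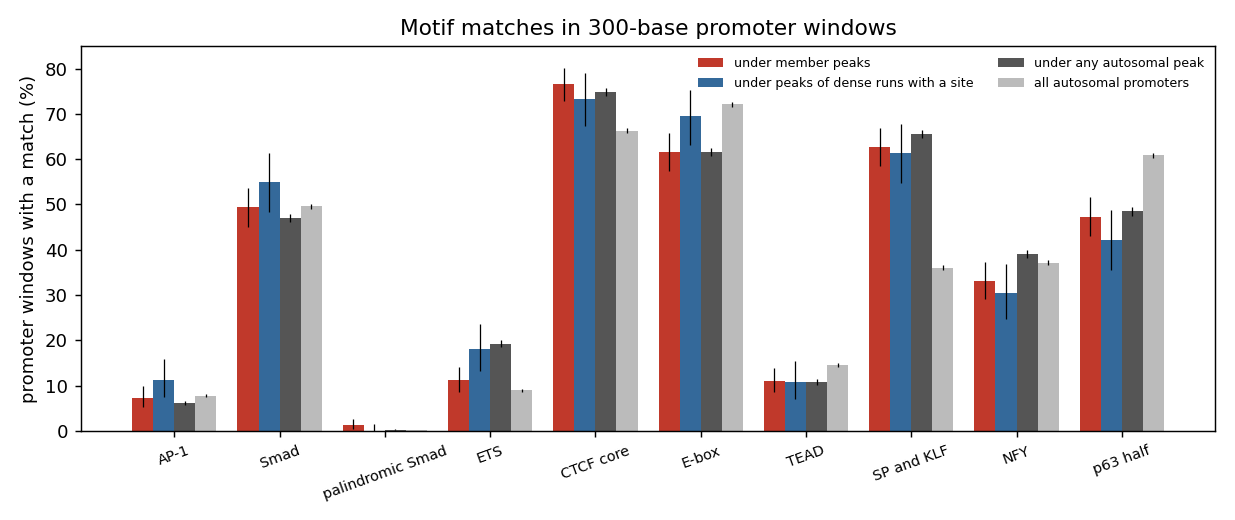
Percent of 300-base promoter windows with at least 1 match to each motif, under member peaks (535 windows), under peaks of dense runs with a site (233), under any autosomal peak (11273) and over all autosomal promoters (31223). Bars carry exact binomial 95% intervals. The ETS bar is 11.2% under member peaks and 19.3% under any peak.

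MicroRNA genes were found in the same runs. Of 919 autosomal hairpins, 10 lay in the span of a site-free run and 4 of these lay under a peak, those of let-7i, miR-1956, miR-707 and miR-7687. Hairpins under other peaks or in other runs were not counted, so these counts say only where the hairpins lay. The hairpin of miR-210, which is induced by hypoxia, lay in a span but between peaks, in a run of 4 peaks. Let-7 microRNAs repress growth-promoting transcripts, among them those of Ras genes. Their mature sequences from RefSeq are shown because they identify the products of these loci, with the seed, bases 2 to 8, in capitals.
mmu-let-7i-5p (chr10:122985698-122985719, minus strand): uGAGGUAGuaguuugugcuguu
mmu-let-7i-3p (chr10:122985642-122985663, minus strand): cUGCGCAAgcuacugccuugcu
mmu-miR-1956 (chr3:138526425-138526446, plus strand): aGUCCAGGgcugagucagcgga
mmu-miR-707 (chr7:44849705-44849725, plus strand): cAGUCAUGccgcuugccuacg
mmu-miR-7687-5p (chr8:120538696-120538720, plus strand): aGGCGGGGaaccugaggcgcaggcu
mmu-miR-210-3p (chr7:141221407-141221428, minus strand): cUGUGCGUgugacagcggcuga
The seeds differ, so these arms share no seed group. The let-7i run had 4 peaks and lay 1605947 bp from the nearest site, and the miR-210 run lay 47271 bp from one. No microRNA values are part of the RNA table.

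The RNA table is the authors' list of differentially expressed genes. It gives log2 ratios between populations, with no levels and no depth. Whether a gene is listed, and the shares of higher and lower genes, therefore depend in part on the authors' selection. It holds 94 of the 692 protein-coding genes over site-free runs (13.6%), against 7.10% of all 20665 autosomal protein-coding genes and 13.3% of the 346 over dense runs with a site. A gene is counted as higher or lower where its ratio has the same sign in SCC1 and SCC2, and single genes were not tested. In quiescent over proliferative cells, 42 of the 94 were higher in both tumours and 37 were lower, beside 35.8% higher and 52.3% lower over the 1609 genes of the table. These are 44.7% and 39.4% of the 94. By SCC2 alone, 57.4% of the 94 were higher and 42.6% were lower, beside 45.1% and 54.6% over the table. By SCC1 alone the shares were 47.9% and 52.1%, beside 38.3% and 61.6%. The share of higher genes was thus larger by SCC2 than by SCC1 both among the 94 and over the table. Of the 94, 12 were higher and 16 were lower by a log2 ratio of 1 or more in both tumours, by the authors' deposited table. These are 12.8% and 17.0%, beside 11.3% and 23.3% over the table. Their median log2 ratio, computed on the authors' deposited table, was -0.17 for SCC1 and 0.38 for SCC2, against -0.61 and -0.49 over the whole table. Of the 46 genes over dense runs with a site, 63.04% were higher and 28.3% were lower. In double negative over proliferative cells, 52 of the 94 were higher and 36 were lower, beside 42.6% and 50.9% over the table. In quiescent over double negative cells, 13 were higher and 29 were lower, beside 16.3% and 30.0%. The first 2 comparisons share the proliferative libraries, and the last shares a population with each of them. Whether the share of higher genes differs between the 2 kinds of run was not tested.

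The 10 genes with the highest mean ratios included Ccn2 and Ltbp4 from the list of TGF-β targets and Fos and Fosb from the list of immediate early genes. Ccn2 (listed as Ctgf), a matrix protein and classical TGF-β target, had ratios of 3.08 (SCC1) and 3.49 (SCC2), as the authors' deposited table gives them. Its 4-peak run ends within the gene, and a site lies 560 bp from the run. Mmp12, the macrophage elastase, had ratios of 1.53 and 3.73 for SCC1 then SCC2 in the authors' deposited table, and its run had 7 peaks. Both genes were higher in quiescent cells in both tumours. Abca1, a cholesterol transporter with 2 site-free runs, had ratios of 2.12 and 1.77 for SCC1 then SCC2 in the authors' deposited table. Ltbp4, which binds latent TGF-β in the matrix, had ratios of 1.73 and 1.60 in the authors' deposited table, and Sugct, a mitochondrial enzyme gene, had 2.54 and 0.71, in the same order. These 3 were higher in both tumours as well. The chemokine gene Ccl4 had ratios of 0.21 and 5.35 and the chemokine receptor-like gene Ccrl2 had 0.13 and 4.46 for SCC1 then SCC2 in the authors' deposited table, so that their high mean rests mainly on SCC2. The histone gene H4c8 (listed as Hist1h4h) had ratios of 2.35 and 5.19 in the authors' deposited table, and because histone genes have near-identical copies its reads may be shared. H3c8, in the same 5-peak run, went the other way, with -12 in both tumours, the limit of the table. Double negative cells were measured against the same proliferative libraries. In that comparison Ccn2 had ratios of 4.17 and 2.64, Ccl4 had 2.33 and 1.34, Ccrl2 had 2.44 and 0.76, and Mmp12 had 1.83 and 2.95, for SCC1 then SCC2 in the authors' deposited table. In quiescent over double negative cells Ccl4 had -2.16 and 3.98 and Ccrl2 had -2.36 and 3.66, in that order in the authors' deposited table, so for both the sign differed between the tumours.

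Among genes with no value at the limit of the table, the 10 with the lowest mean ratios included Mki67 and Mcm2 from the list of mitosis and replication genes. All 30 genes of that list in the RNA table were lower in quiescent cells in both tumours, so this is not particular to genes over these runs. Mki67, which encodes the proliferation antigen Ki-67, had ratios of -5.90 (SCC1) and -2.28 (SCC2), as the authors' deposited table gives them. All 4 peaks of its run overlap the gene, and its promoter lies under one of them. Gins1, a part of the replicative helicase, had ratios of -3.07 and -2.06 for SCC1 then SCC2 in the authors' deposited table. Ncapg2, a condensin subunit, had -3.12 and -1.93, and Mcm2, a helicase subunit, had -2.12 and -1.12, in the authors' deposited table. Chaf1a, a histone chaperone of replication, had -2.001 and -1.58, in the authors' deposited table and the same order. All 5 were lower in quiescent cells in both tumours. In double negative over proliferative cells, Mki67 had ratios of -4.40 and -3.15 and Mcm2 had -2.03 and -2.06, in the same order in the authors' deposited table. Gipc2, which also carries a dense run with a site, had ratios of -2.80 and -2.24, and Blnk, the B cell linker, whose run has 7 peaks, had -2.38 and -1.76, for SCC1 then SCC2 in the authors' deposited table. The ratios of Shtn1, a neuronal scaffold gene, were -1.87 and -1.12, and those of the centrosomal gene Cep70 were -1.32 and -1.65, in the authors' deposited table. H1f5, a linker histone gene with near copies, had -2.84 and -1.66 in the authors' deposited table. The histone gene H3c8, also over a site-free run, had quiescent over proliferative ratios of -12 in SCC1 and in SCC2. These lie at the limit of the table, so H3c8 was left out of the ranking.

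**Figure D4:**
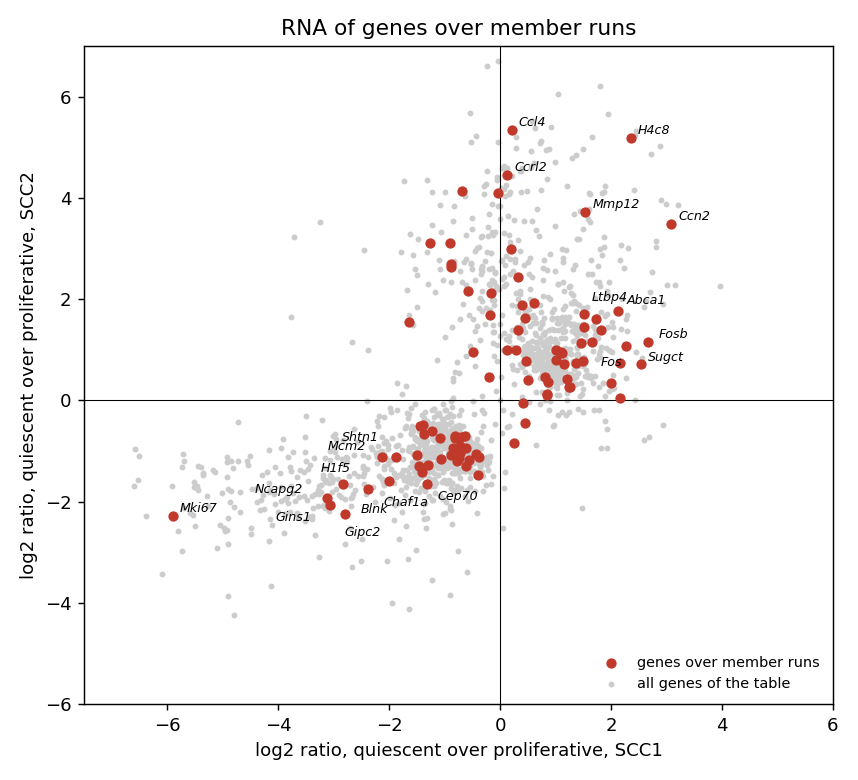
Log2 ratio of quiescent over proliferative cells in SCC1 (x) and SCC2 (y), from the authors' deposited table, for the genes over site-free runs (red) and for all genes of the table (grey). The 10 highest and 10 lowest by mean are named, among genes of the same sign in both tumours with no value at the limit of the table. Outside the axes lie 37 genes of the table, 1 of them over a site-free run (H3c8). Red points lie in both corners, 42 higher and 37 lower in both tumours.

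Some ratios differed in direction between the tumours. Of the 94 genes, 12 were lower in quiescent cells of SCC1 and higher in those of SCC2 (12.8%), and 3 the other way round (3.19%). Over the whole table, 149 genes (9.26%) and 38 genes (2.36%) did so, and whether these shares differ was not tested. Plek, which encodes the platelet and leukocyte protein pleckstrin, had ratios of -0.70 (SCC1) and 4.13 (SCC2), as the authors' deposited table gives them. Srgn, the proteoglycan of blood cell granules, had -0.05 and 4.10, and the class II antigen gene H2-Aa had -0.90 and 3.11, for SCC1 then SCC2 in the authors' deposited table. Rgs1, a signalling regulator of lymphocytes, and Ctss, the lysosomal protease cathepsin S, were in this group too, and these genes were chosen after their values were seen. Values of marker genes stand beside them. The 4 of 7 immune markers that the table lists had a median of -0.48 (range -1.57 to 1.65) for SCC1 and 2.80 (2.49 to 4.24) for SCC2, from the authors' deposited table. The 7 of 9 fibroblast markers listed had a median of 0.08 (-0.997 to 2.75) for SCC1 and 4.42 (2.54 to 5.38) for SCC2, from the authors' deposited table. Their part in the ratios of these genes was not tested, and fewer cells of a type and less RNA per cell cannot be told apart in sorted bulk samples. Of the 8 keratinocyte markers, the table lists Epcam, with -3.21 (SCC1) and -0.40 (SCC2), as the authors' deposited table gives them. In double negative over proliferative cells Epcam had -1.93 and -0.68, in the same order. Of the 31 keratin and adhesion genes the table lists Epcam, Krt16 and Krt6b. In quiescent over proliferative cells these 2 keratins differed between the tumours. Krt16 had -1.13 and 0.79 and Krt6b had -3.71 and 3.22, for SCC1 then SCC2 in the authors' deposited table, so both were higher in quiescent cells of SCC2, unlike Epcam. Their levels in the libraries are not part of the table.

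Genes of pathways relevant to these tumours were looked up over the runs. The counts for each list are read against the 3.35% of protein-coding genes that lie over a site-free run and the 1.67% over a dense run with a site. Of 18 AP-1 and immediate early genes, 6 lay over a site-free run, namely Fos, Fosb, Jun, Egr1, Ier2 and Myc. Another 5 lay over a dense run with a site, namely Junb, Atf3, Dusp1, Klf6 and Zfp36. These genes are transcribed within minutes of a stimulus, and Fos, Fosb and Jun encode subunits of AP-1. Fos had ratios of 2.26 in SCC1 and 1.07 in SCC2, Fosb 2.66 and 1.16, and Jun 1.37 and 0.73, in the authors' deposited table. Egr1 had 2.16 and 0.04 and Ier2 1.996 and 0.35, in the authors' deposited table and the same order, so all 5 listed members were higher in quiescent cells in both tumours, least so Egr1 in SCC2. All 5 were also higher in double negative over proliferative cells in both tumours, Fos with 1.46 and 1.58. In quiescent over double negative cells all 5 were higher in SCC1 and lower in SCC2, Fos with 0.77 and -0.54 in the authors' deposited table. Fosb carried 5 peaks within a span of 7750 bp, all over the gene, and a site lay 10878 bp from the run. Of the whole list, 13 genes are in the RNA table, and 12 of these were higher and 0 lower in quiescent cells in both tumours. The nearest site lay 9772 bp from the Fos run and 134632 bp from the Jun run.

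Of 22 TGF-β target genes, 5 lay over a site-free run (Ccn2, Pmepa1, Tgif1, Ltbp4 and Itgav). Of 27 genes for TGF-β and BMP signalling components, 3 lay over a site-free run. They were Tgfbr2, the type II receptor, with 5 peaks and the nearest site 61989 bp away, Smad3, and Inhba, which encodes the activin A chain, with 5 peaks and the nearest site 464324 bp away. None of these 3 is in the RNA table, which lists 12 of the 22 targets, 10 of them higher and 0 lower in quiescent cells in both tumours, and 5 of the 27 signalling components, all 5 higher. Tgif1, a corepressor of Smads, and Itgav, the integrin chain that helps release active TGF-β, each carried 6 peaks, with a site 9010 bp and 9035 bp from their runs.

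Of 24 genes of the EGFR and Ras pathway, Egfr, Dusp6 and Ccnd1 lay over a site-free run. The Egfr run had 7 peaks over 20350 bp (chr11:16790251-16810600), all within the gene, and a site lay 6792 bp away. Dusp6 encodes a phosphatase that acts on ERK. Ccnd1, which encodes cyclin D1, had ratios of -0.62 (SCC1) and -1.30 (SCC2), as the authors' deposited table gives them, lower in quiescent cells in both tumours. Of 31 genes of mitosis and replication, Mki67 and Mcm2 lay over a site-free run, and 0 over a dense run with a site. Of the 57 keratinocyte genes in 3 lists, 1 lay over a site-free run, the transcription factor gene Nfib. Over dense runs with a site lay 5 of them, the adhesion and cytoskeletal linker genes Dsg3, Dsp, Dst and Plec and the transcription factor gene Elk3. Of the 11 histone genes listed, H4c8 and H4f16 lay over site-free runs and 3 lay over dense runs with a site. Histone genes outside that list also lay over site-free runs, among them H1f5, H2ac22, H2bc14 and H3c8. Of 7 immune markers, Cd68 lay over a site-free run and 0 over a dense run with a site. The fibroblast, endothelial, NRF2 and Wnt lists had 0 members over site-free runs, and 2 NRF2 genes lay over dense runs with a site.

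Copy number was called by the authors from input DNA of each tumour. In SCC1, 31.5% of member peaks lay in a gain (30.0 to 33.1), beside 31.6% of all autosomal peaks, and 40.02% of peaks in dense runs with a site did (37.9 to 42.2). In SCC2 the shares in a gain were 28.2% of member peaks, 34.2% of peaks in dense runs with a site and 31.5% over all. Losses held 2.99% of member peaks in SCC1, beside 2.45% over all, and 2.07% in SCC2, beside 2.03%. Called regions are large and hold many runs, so these intervals are too narrow. In the SCC1 losses, 1.37% of 1460 peaks held a site (0.839 to 2.11), against 5.87% of the 39294 peaks with no call (5.64 to 6.11) and 7.09% of those in gains (6.73 to 7.47). Of the dense runs, 23 of 26 in SCC1 losses were site-free (88.5%), against 68.6% of 774 with no call and 61.8% of 406 in gains. By the SCC2 calls, 4.39% of 1208 peaks in losses held a site (3.30 to 5.70), against 5.74% with no call and 7.13% in gains (6.76 to 7.50), so the share in losses lay closer to the others than by the SCC1 calls. Of the dense runs, 17 of 21 in SCC2 losses were site-free (80.95%, 58.1 to 94.55), against 67.9% with no call and 63.4% in gains. The SCC1 losses on autosomes are 14 regions on 7 chromosomes, but 99 of the 110 member peaks in them lay on chromosome 14. Chromosome 14 had 48 sites, 1.51% of its peaks holding one, and 36 of its 44 dense runs site-free (81.8%), and 59.6% of its member peaks lay in an SCC1 loss. Chromosome 8 had the smallest share, 47 of 98 (48.0%), against 66.7% over all autosomes. The part of copy number in the lack of sites was not tested.

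**Figure D5:**
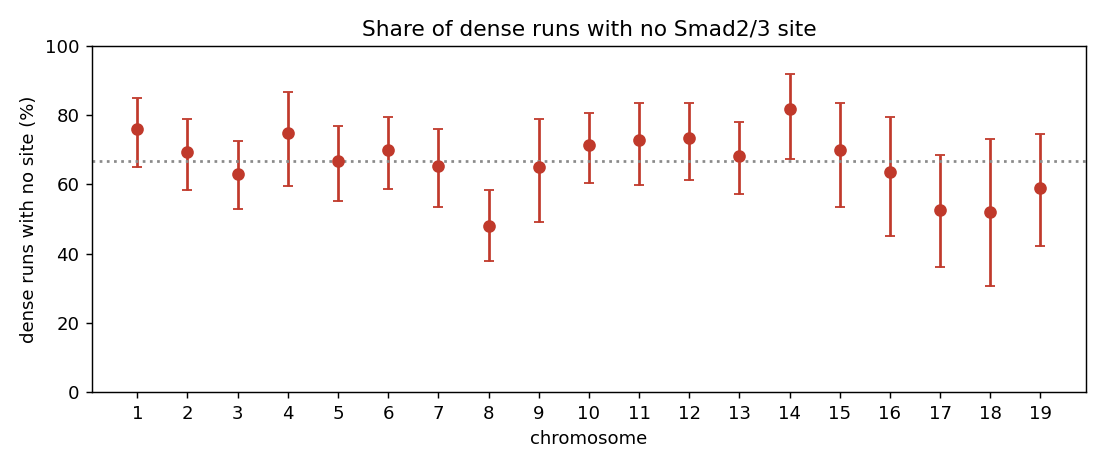
Percent of dense runs without a Smad2/3 site on each autosome, with exact binomial 95% intervals, and a dotted line at the share over all autosomes (66.7%). Chromosome 14 is at 81.8% and chromosome 8 at 48.0%.

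Expressed mutations were set beside the runs. Of 638 distinct autosomal nonsynonymous or stop mutations listed, 10 lay in the span of a site-free run and 3 of these under a member peak, in Tpi1, Emb and Plekha5. These 3 are 6.67% of the 45 mutations under any ATAC peak, near the 6.17% of peaks that are members. Tpi1 encodes triosephosphate isomerase, an enzyme of glycolysis. The alternative base of Tpi1 was in 18% of 345 reads in quiescent and 19% of 306 reads in proliferative SCC1 cells, and in 14% of 50 reads in quiescent and 20% of 295 reads in proliferative SCC2 cells. The exact binomial 95% intervals of these shares, 5.82 to 26.7 at the widest, all overlap, and whether the shares differ was not tested. The Emb change, in the gene of embigin, an adhesion glycoprotein, was in 61% of 49 reads in quiescent and 57% of 69 reads in proliferative SCC1 cells, and in 52% of 27 reads in proliferative SCC2 cells. The intervals are 46.2 to 74.8, 44.04 to 68.4 and 31.95 to 71.3 in that order. A Myc change was listed in SCC1 alone, in 34% of 38 reads of quiescent cells (19.6 to 51.4) and 58% of 40 reads of proliferative cells (40.9 to 73.0). In all, 36 of the 692 genes over site-free runs carried a listed mutation (5.20%). The share was also 5.20% of the 346 genes over dense runs with a site, and 2.53% of all autosomal protein-coding genes, which are shorter by the median. A mutation is listed only where RNA covers it, so a gene with none is not shown to lack one.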

How the data were processed

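ATAC peaks and Smad2/3 sites were used as the authors' deposited positions, with no score. Bowtie with mm10 is named for the ATAC libraries, and Bowtie and Picard 1.88 for ChIP and input, per the submitters' processing notes. TopHat2 2.0.9, Cufflinks 2.2.0 and Cuffdiff 2.2.0 with mm10 are named for RNA, with mm9 also named for the double negative libraries. For the callers and the rule that merged peaks, nothing is given in the sources used here. RNA values are log2 ratios deposited by the authors for genes they list as differentially expressed. They are limited to 12 in size, and their depth is unknown. The mutation table holds a read count and a percent of reads deposited by the authors, whose intervals here were computed from the rounded percent. Copy number regions carry a p-value from the authors, which was not used.

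Runs, overlaps of 1 bp or more and exact 95% intervals were computed in Python 3.11.15 with numpy 2.4.6, pandas 2.3.3 and scipy 1.17.1, and the code for runs and overlaps was tested on simulated data. Intervals of medians are from order statistics. Intervals cover counting error only, since PCR copies and neighbouring peaks are not independent. Gene positions came from RefSeq on GRCm38.p6, and 1600 of 1609 table genes had a match (1492 through the symbol, 108 through a synonym). Genes are linked to a run where the gene body overlaps its span. A peak lay in a copy number region by its midpoint.

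Everything is descriptive, with no test. The members, lists and rules were chosen with earlier results of these data known. Runs named are the 12 with the most peaks, the 5 longest and the 5 most closely packed of 5 or more peaks. Genes named are the 10 with the highest and the 10 with the lowest mean quiescent over proliferative ratio, and the list members over a site-free run. The ranking by mean took genes of the same sign in both tumours with no value at the limit of the table. Other genes given as examples were chosen after their values were seen. Peak sequence away from promoters was not analysed here. Alternatives for the gap, the number of peaks, the site overlap, the gene link, the tumours and the copy number rule were tried.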

Additional observations from a re-analysis of the deposited data

How the results depend on the processing

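Of 68 values recomputed under other settings, 43 stayed within 1.5 times for a count or within the 95% interval otherwise, and 25 moved. The number of site-free runs (805) and member peaks (3675) followed the rule: 252 and 1068 with a gap of 2.5 kb, 1998 and 9986 with 10 kb, 284 and 1591 with 5 or more peaks, and 2628 and 9144 with 3 or more. The median span was 6100, 17250, 12750 and 6750 bp in the same order. A stricter rule on sites left 776 runs (none within 1 kb of a peak) or 718 (none in the span or within 10 kb). Among table genes over site-free runs, 60.7% were higher and 28.6% lower in quiescent cells with the 2.5 kb gap, where 28 genes were left. With 5 or more peaks 28.6% of 35 were lower. With a ratio of 1 or more in size, 12.8% were higher and 17.0% lower, so the order of the 2 shares turned round. By 1 tumour, 47.9 to 57.4% were higher and 42.6 to 52.1% lower. SCC2 alone gave more higher genes and SCC1 alone more lower genes, and the order turned round in SCC1. The share with 4 or more member peaks in the gene was 39.0% higher and 43.9% lower. Protein-coding gene bodies held 58.8% of member peaks with the 10 kb gap and 64.0% with 5 or more peaks. Gains held 33.6% in SCC1 with 5 or more peaks, and in SCC2 30.3% with 10 kb, 26.1% with 5 or more peaks and 30.3% with 3 or more. The cause of these shifts was not tested, beyond the smaller or larger sets of runs that the rules make. The deposited ratios are formed within each tumour, so they are paired by tumour as they stand. No paired analysis was possible because no result comes from a test, and none was run. The whole-peak sequence alternative was not run.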

Other observations

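Genes known from macrophages were seen at some of the site-free runs. After Tnip3, Cx3cr1, Mmp12, Lgmn, Ctsd and Cd68 had been seen, a list of 30 macrophage genes was written. Over site-free runs lay 7 of them (23.3%), and 0 lay over dense runs with a site. The share over site-free runs is no independent result, since it restates the genes that prompted the list. The 5 of these genes seen before the list was written were among the 7, and of the 25 others 2 lay over a site-free run, Cd86, a costimulatory ligand of antigen-presenting cells, with 5 peaks, and Ctss, with 4. Over all protein-coding genes the share over a site-free run was 3.35%. Gene bodies of the 30 macrophage genes held 80 peaks, in 28 of the genes, and those of the 57 keratinocyte genes held 182 peaks, in 44. The table lists 8 of the 30 genes, with a median log2 ratio of quiescent over proliferative cells of 0.30 in SCC1 and 2.72 in SCC2, from the authors' deposited table. Which cells of a library gave the peaks cannot be told apart in a merged list.

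The X chromosome was left out by the rule. It held 1929 peaks and 15 dense runs, and 0 of these had a Smad2/3 site. The dense run with the most peaks in the genome was not site-free: on chromosome 11 (chr11:3123651-3202650), 50 peaks filled 79000 bp, and 2 of them held a site. That region was called at 4 copies in SCC1 and 3 copies in SCC2. Of the site-free runs, 7 of 805 lay in regions of 5 or more copies in SCC1 (0.870%) and 3 in SCC2 (0.373%), against 1 of 401 dense runs with a site in each tumour (0.249%).

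The Usp5 change in a site-free run was listed in all 4 libraries, in 54% of 210 reads in quiescent and 51% of 287 reads in proliferative SCC1 cells, and in 54% of 26 reads in quiescent and 55% of 217 reads in proliferative SCC2 cells. The exact binomial 95% intervals are 46.8 to 60.7, 44.9 to 56.8, 33.4 to 73.4 and 47.96 to 61.6 in that order.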
